A study of Mus musculus with 24 samples.

Results

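Of 8 leukaemias that arose in mice carrying a transgene for LAP, 5 had a Vpreb1 log2 ratio below -4.0 and 3 did not. The 8 tumours are part of 16 primary tumours and 24 samples in the whole series. They were split by this measured ratio and not by their labels, so everything that follows about the split describes these 8 tumours and carries no test. The Vpreb1-low class held the tumours labelled LAP B-ALL 1, 2 and 3 and LAP preB-ALL 2 and 4. The Vpreb1-high class held LAP preB-ALL 1 and 3 and the tumour labelled LAP B-ALL 4.

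LAP is the activating form of C/EBPβ, a transcription factor that is encoded by Cebpb. All 8 tumours came from Cebpb LAP transgenic mice, with 4 labelled as preB-ALL, a leukaemia of precursor B cells, and 4 as B-ALL, and no wild-type B cells were analysed here. For comparison there were 8 tumours without the adaptor protein Blnk, of which 5 were preB-ALL of Blnk homozygous knock-out mice (Blnk preB-ALL) and 3 were preB-ALL of Blnk KO/LAP tg mice (LAP/Blnk preB-ALL). The sources used here do not give the promoter of the transgene, the tissue sampled, the share of leukaemic cells, or the strain and age of the mice. Nothing in the labels states that each tumour came from another animal, so the p-values below measure the spread between these samples, which may be technical. RNA was measured on Affymetrix arrays, and the deposited values are log ratios to the median of the 16 tumours for each probe set. They were taken as log2, since the sources used here do not state the base. A value of 0 is thus the middle of the tumours, not absence, and no value below is a level of expression. Array medians lay between -0.029 and 0.064, and the number of arrays limits the precision.

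Vpreb1 encodes a part of the surrogate light chain, which precursor B cells make before they have rearranged a light-chain gene. It joins the immunoglobulin heavy chain in the pre-B-cell receptor (pre-BCR), a checkpoint that lets pre-B cells proliferate and then move on, and Vpreb1 is silent in mature B cells. The recombinase genes Rag1 and Rag2 are active while receptor genes rearrange. Ms4a1 encodes CD20 and MHC class II molecules present antigen to T cells, and both increase as B cells mature.

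The upstream sequences of Vpreb1 and Rag1 are shown because these markers were low together in the same 5 tumours. In both, E boxes (the letters CANNTG, on both strands since the motif is a palindrome but for its middle) are in capitals. E proteins, the product of Tcf3 among them, bind such motifs. The windows are the 250 bases before the start of each gene in RefSeq, build GRCm38.p6, minus strand, at chr16:16869256-16869505 for Vpreb1 and chr2:101649533-101649782 for Rag1.
Vpreb1: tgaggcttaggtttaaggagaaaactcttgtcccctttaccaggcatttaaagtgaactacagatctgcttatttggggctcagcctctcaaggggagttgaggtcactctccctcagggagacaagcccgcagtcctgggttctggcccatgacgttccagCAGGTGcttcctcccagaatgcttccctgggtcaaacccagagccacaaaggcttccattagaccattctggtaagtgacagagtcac
Rag1: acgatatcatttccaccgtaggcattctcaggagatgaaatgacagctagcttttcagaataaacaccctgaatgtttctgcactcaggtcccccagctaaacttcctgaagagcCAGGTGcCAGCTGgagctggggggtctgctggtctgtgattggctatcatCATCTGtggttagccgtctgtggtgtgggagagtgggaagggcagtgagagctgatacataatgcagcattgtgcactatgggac
The Vpreb1 window held 1 E box and the Rag1 window held 3. Of 27025 windows of the same length, 66.0% held at least 1, with a median of 1. A palindrome bound by the B-lineage factor EBF1 (TCCCNNGGGA) was in 0.788% of windows and in neither of these, which says only that those letters are not in these stretches. Of the 3 markers, 2 had an entry in the table of promoters, and Ms4a1 had none.

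The transgene itself was looked at first. On the Cebpb probe set with the largest spread, the 5 Blnk preB-ALL tumours, which lack the transgene, lay between -4.50 and -1.94. Of the LAP tumours, 6 lay between 0.03 and 0.90. LAP preB-ALL 2 had a value of -1.41. In the tumour labelled LAP B-ALL 4 it was -3.11, inside the range of the tumours without a transgene. On the other probe sets of Cebpb the LAP and Blnk tumours overlapped. The tumour labelled LAP B-ALL 4 is the only Vpreb1-high tumour labelled B-ALL. Many, but not all, of the counts that change by over 1.5 times without it are given both ways. LAP preB-ALL 2 lay at least 2 beyond all other Vpreb1-low tumours in 383 genes, against 1 to 10 genes for each of those 4. Counts without LAP preB-ALL 2 are treated in the same way.

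Vpreb1 was at -8.84, -8.78 and -8.97 in LAP B-ALL 1, 2 and 3 and at -8.49 and -8.89 in LAP preB-ALL 2 and 4. In the Vpreb1-high class its values were 0.14 for the tumour labelled LAP B-ALL 4, -0.11 for LAP preB-ALL 1 and 0.01 for LAP preB-ALL 3. No LAP tumour lay between -8.49 and -0.11, so the nearest values on either side of the threshold were 8.38 apart. All 8 tumours without Blnk lay between -0.45 and 0.35, beside the Vpreb1-high class. The difference of the class means was -8.81 (SE 0.12, n = 5 and 3), a ratio of 448 on a linear scale if the logarithm is of base 2.

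Rag1, a subunit of the V(D)J recombinase, was between -6.62 and -5.66 in the Vpreb1-low class. In the Vpreb1-high class it was at 2.00 in the tumour labelled LAP B-ALL 4, -0.41 in LAP preB-ALL 3 and -3.71 in LAP preB-ALL 1. The classes did not overlap, but LAP preB-ALL 1 lay closer to the Vpreb1-low tumours than to the other members of its own class. The largest gap of Rag1 among the LAP tumours, 3.3, put 6 tumours on the low side and 2 on the high side.

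Ms4a1 was at 3.68, 2.96 and 3.06 in LAP B-ALL 1, 2 and 3 and at 3.87 and 1.94 in LAP preB-ALL 2 and 4. LAP preB-ALL 1 was at -3.87 and LAP preB-ALL 3 at -4.67. The tumour labelled LAP B-ALL 4 was at 1.85, only just below the lowest Vpreb1-low tumour. Its largest gap, 5.72, placed this tumour with the Ms4a1-high side, 6 tumours against 2. The tumour labelled LAP B-ALL 4 therefore had Vpreb1 and Rag1 like the tumours without Blnk and Ms4a1 nearer to the Vpreb1-low class. Blnk preB-ALL 2 and 5 likewise had Ms4a1 at 1.21 and 1.28 with Vpreb1 near 0.

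**Figure D1:**
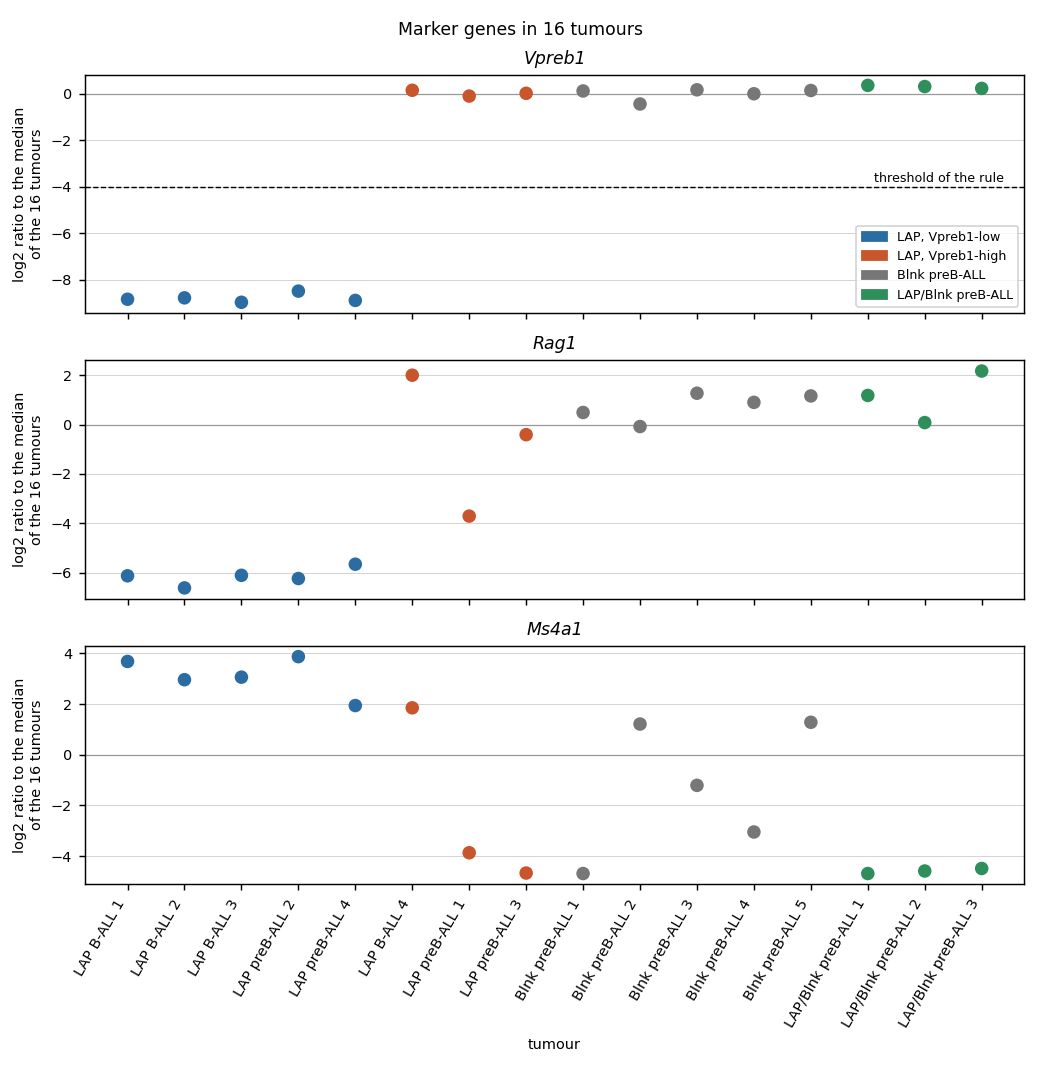
Log2 ratios of Vpreb1, Rag1 and Ms4a1 (y axes, to the median of the 16 tumours) in each tumour (x axis), with the threshold of -4.0 for Vpreb1 as a dashed line. Vpreb1 leaves an empty range of 8.38 among the LAP tumours, whereas Rag1 places LAP preB-ALL 1 at -3.71 and Ms4a1 places the tumour labelled LAP B-ALL 4 at 1.85, each next to the Vpreb1-low class.

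The labels did not follow the split. The Vpreb1-low class took 3 of the 4 tumours labelled LAP B-ALL and 2 of the 4 labelled LAP preB-ALL. Between the labelled groups Vpreb1 differed by -2.24 (LAP B-ALL minus LAP preB-ALL, SE 2.23, exact permutation test, two-sided, p = 0.486, adjusted over the 3 markers 0.729). Its means were -6.61 ± 4.51 and -4.37 ± 4.99 (SD, n = 4 each). The SE in this paragraph are those of limma, which pools the spread of all 16 tumours, and not of the permutation tests. For Rag1 the difference was -0.21 (SE 1.66, exact permutation p = 0.857, adjusted 0.857). Ms4a1 was at 2.89 ± 0.76 in LAP B-ALL and at -0.68 ± 4.23 in LAP preB-ALL (SD, n = 4 each), a difference of 3.57 (SE 1.74, exact permutation p = 0.257, adjusted 0.729). The smallest p that 4 tumours against 4 allow is 0.0286. The adjusted p of limma over all genes were 0.724, 0.974 and 0.47 for the 3 genes.

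Across all genes the labels separated few. limma called 0 of 17097 genes (0.0%) between LAP B-ALL and LAP preB-ALL at an adjusted p under 0.05, the lowest adjusted p being 0.125, and 1884 genes (11.0%) had an unadjusted p under 0.05. With array weights 4 genes were called. Without LAP preB-ALL 4, a Vpreb1-low tumour with the label preB-ALL, 291 were called, 193 higher and 98 lower in LAP B-ALL, and without the tumour labelled LAP B-ALL 4, 5 were called. In 68 genes (0.398%) the labelled groups did not overlap and their means differed by at least 1.0.

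By the same measure, which is called apart below, 966 of 17097 genes (5.65%) were apart between the Vpreb1 classes. In the Vpreb1-low class 480 (2.81%) were lower and 486 (2.84%) were higher. A difference of at least 2 was seen in 140 lower and 167 higher genes, and of at least 4 in 23 lower and 20 higher genes. Leaving out the tumour labelled LAP B-ALL 4 gave 1457 genes apart and leaving out LAP preB-ALL 2 gave 1494, the latter with 597 lower and 897 higher. The rule chose the classes on Vpreb1 in these tumours, and genes that vary with it were bound to separate, so these counts are no evidence that the split is a real division.

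Vpreb1 and Vpreb2, both of the surrogate light chain, had the largest differences of all named genes. Vpreb2, a close copy of Vpreb1, was between -8.40 and -7.94 in the Vpreb1-low class and between -0.18 and 0.35 in the Vpreb1-high class. Its probe set is of a kind that can match several transcripts, and the promoter windows of the 2 genes in RefSeq share a run of 91 identical bases of 300, so its signal may not be separate from that of Vpreb1. Vpreb3, a relative found in the endoplasmic reticulum of B cells, was between -6.54 and -2.85 against -0.14 to 0.88 (difference -5.14, SE 0.83).

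Partners of the surrogate light chain differed less. Cd79a and Cd79b, which encode the signalling chains of the pre-BCR and of the B-cell receptor, differed by -0.02 (SE 0.35) and 0.33 (SE 0.60) with overlapping classes. For Cd79b the overlap came from the tumour labelled LAP B-ALL 4 at 0.95. LAP preB-ALL 1 and 3 were at -1.30 and -1.05, below the Vpreb1-low class (-0.86 to 0.40). Ighm, the µ heavy chain, was between -0.28 and 0.09 against 0.42 to 1.80. The classes did not overlap, and its difference of -0.99 (SE 0.33) fell just short of the size asked for. Of 6 measured genes of the pre-BCR list, 3 were lower and none was higher in the Vpreb1-low class, with a list median of -3.06 against 0.01 over all genes. Without the tumour labelled LAP B-ALL 4, 4 were lower and 1 was higher, beside 701 (4.10%) and 756 (4.42%) of all genes. Igll1, the other surrogate light chain gene, was not analysed here.

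Genes of recombination and of the early pro-B stage were lower together with Vpreb1. Of 18 measured, 7 were lower and 1 was higher (list median -1.76). Rag2 was between -3.99 and -3.74 in the Vpreb1-low class, a range narrower than that of any other gene in this paragraph, and at 2.13, -1.92 and -0.64 in the Vpreb1-high class. Enpep, the aminopeptidase known as BP-1 on pre-B cells, was between -7.11 and -6.64, while LAP preB-ALL 3 was at -4.73 and the other members of its class at -0.06 and 1.61. Cd93, a receptor of immature B cells, was between -5.55 and -1.15 against -0.94 to 0.44, and the classes met within a narrow margin. Cd24a, a surface glycoprotein of B-cell precursors, was the exception, at 0.62 to 1.12 against -1.52 to 0.24. Igfbp4, which binds insulin-like growth factors, was at -2.91 in LAP preB-ALL 2 and between -1.91 and -1.57 in the rest of the Vpreb1-low class, against 0.51 to 0.78. Dntt, encoding terminal transferase, differed by -0.45 (SE 0.47) and Kit, the stem cell factor receptor, by -0.85 (SE 0.65), and both overlapped. Flt3, a receptor of early progenitors, reached 3.85 in LAP preB-ALL 1 and 7.09 in LAP preB-ALL 3 but 0.25 in the tumour labelled LAP B-ALL 4, and 2.18 in LAP preB-ALL 2, so it divided the Vpreb1-high class itself.

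Among 30 transcription factors of the B lineage, 6 were lower and 2 were higher in the Vpreb1-low class, and the list median was 0.05. Without the tumour labelled LAP B-ALL 4, 7 were lower and 6 were higher, beside 701 (4.10%) and 756 (4.42%) of all genes. Sox4, which early B-cell development needs, was at -4.31, -4.80 and -4.56 in LAP B-ALL 1, 2 and 3 and at -6.35 and -5.09 in LAP preB-ALL 2 and 4, against 1.13, -0.35 and 0.18. Erg, an ETS factor of progenitors, was between -4.65 and -3.52 against -0.18 to 0.04 (difference -3.93, SE 0.29). Ebf1, a factor that specifies the B lineage and activates Vpreb1, was at -1.87, -1.85 and -2.97 in LAP B-ALL 1, 2 and 3, at -1.40 and -3.81 in LAP preB-ALL 2 and 4, and at 1.76, -0.05 and -0.29 in the Vpreb1-high class. Every Vpreb1-low tumour was thus below every Vpreb1-high tumour for Ebf1.

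Bach2, a repressor that delays plasma cell differentiation, was between -5.61 and -1.85 against -1.64 and -1.60 in LAP preB-ALL 1 and 3 and 1.98 in the tumour labelled LAP B-ALL 4, so the classes were close. Bcl11a, a zinc finger factor that B-cell development needs, differed by -2.77 (SE 0.44), and Runx1, a core binding factor of blood cells, differed by -2.42 (SE 0.28). The higher factors were Id2, an inhibitor of E proteins (1.17 to 1.91 against -0.58 to 0.44), and Lmo2, a bridging factor that germinal centre B cells also make (0.41 to 2.17 against -0.80 to 0.22). Lmo2 was at 0.41 in LAP preB-ALL 2 and at 2.03 or more in the rest of the class. Pax5, the factor that maintains B-cell identity, differed by 0.03 (SE 0.47). Tcf3 and Foxo1, which act with Ebf1 in precursor cells, differed by 0.24 (SE 0.33) and 0.13 (SE 0.06). None of these 3 was apart, and a small difference between so few tumours does not show that they were equal.

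**Figure D2:**
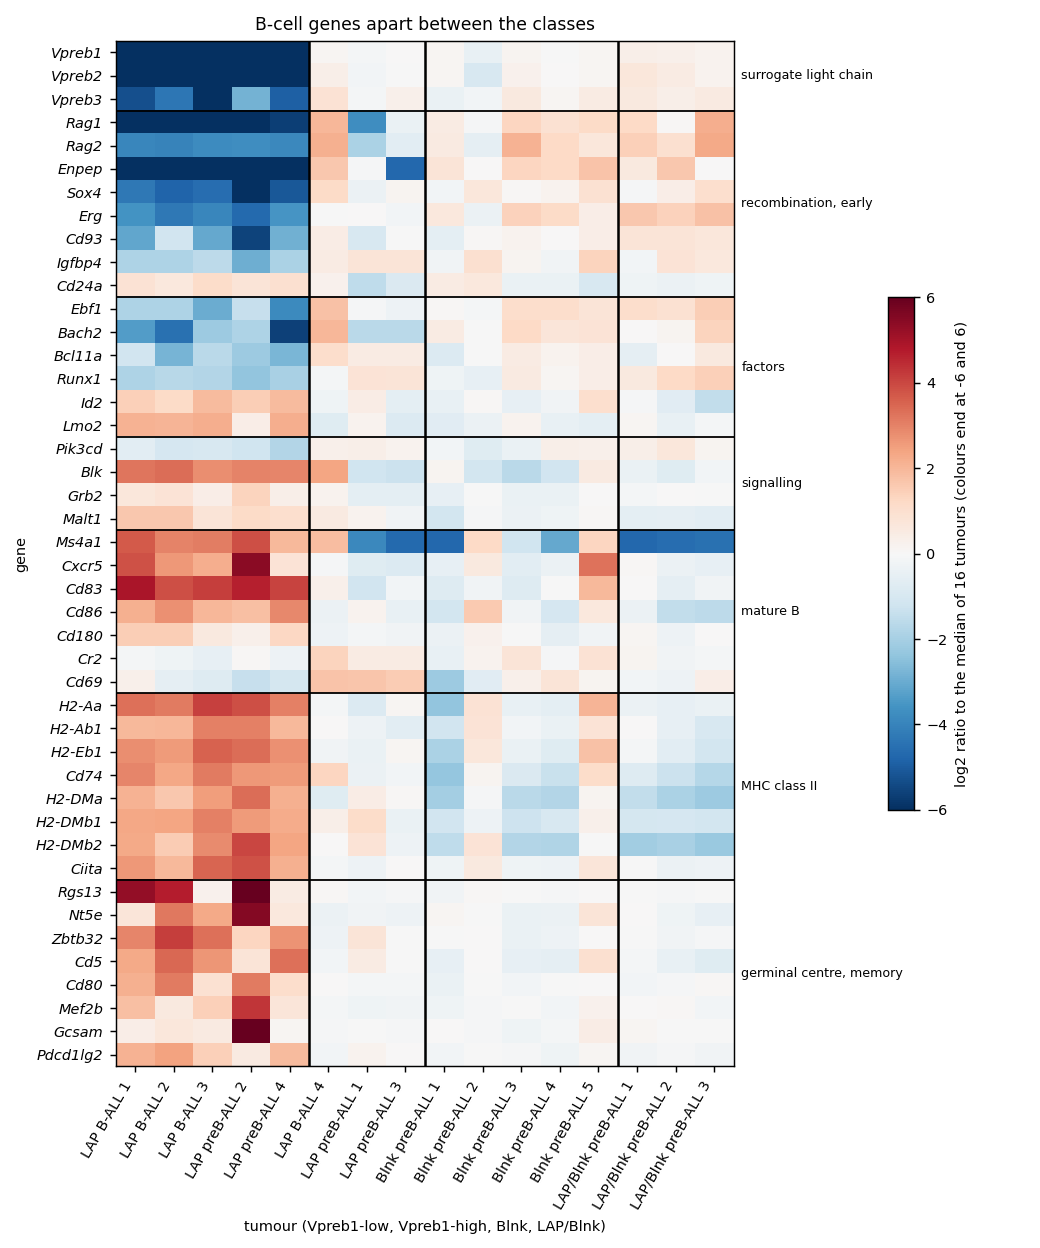
Log2 ratios (colour) of the B-cell genes that were apart between the classes (rows, grouped by role) in the 16 tumours (columns), with vertical lines between Vpreb1-low, Vpreb1-high, Blnk and LAP/Blnk tumours. The 5 Vpreb1-low tumours are low for Vpreb1, Rag2 and Sox4 and high for Cd83 and H2-Aa, while LAP preB-ALL 2 alone reaches 8.83 for Rgs13.

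Signalling genes downstream of the pre-BCR gave 1 lower and 3 higher of 18 measured (list median 0.61). Blk, a Src family kinase of B cells, was between 2.79 and 3.36 in the Vpreb1-low class and at 2.36 in the tumour labelled LAP B-ALL 4, but at -1.21 and -1.28 in LAP preB-ALL 1 and 3. This is the order seen for Ms4a1. Pik3cd, the delta catalytic subunit of PI3 kinase, was between -1.78 and -0.61 against 0.20 to 0.37. Malt1, which carries receptor signals to NF-kB, and Grb2, an adaptor, differed by 1.05 (SE 0.28) and 1.03 (SE 0.30). Blnk, whose product couples the pre-BCR to its kinases, differed by 0.04 (SE 0.55) among the LAP tumours. On this probe set, the only 1 of the gene, the knock-out tumours lay between -0.68 and 1.23 and the LAP tumours between -0.53 and 1.45. It thus does not show the loss of Blnk in the knock-out tumours. Without the tumour labelled LAP B-ALL 4, 7 signalling genes in place of 3 were higher, while the share of all genes that were higher went from 2.84% to 4.42%.

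Genes of immature and mature B cells were apart in both directions, 2 lower and 5 higher of 26 (list median 0.72). Cd83, a surface protein of activated B cells and dendritic cells, was at 4.91, 3.89 and 4.13 in LAP B-ALL 1, 2 and 3 and at 4.68 and 4.05 in LAP preB-ALL 2 and 4, against 0.32, -1.14 and -0.18. All Vpreb1-low tumours were well above all others of the LAP tumours for this gene. Cxcr5, the receptor that leads B cells to follicles, was between 0.81 and 5.40 against -0.80 to -0.06, and Blnk preB-ALL tumours reached 3.24. Cd86, a costimulatory ligand, was between 1.79 and 2.90 against -0.43 to 0.21. Cd180, a receptor of the Toll-like family, differed by 1.24 (SE 0.33). The lower genes were Cd69, an early activation antigen (-1.36 to 0.29 against 1.50 to 1.70), and Cr2, a complement receptor of mature B cells (-0.51 to 0.07 against 0.50 to 1.32). Cd22 and Cd72, coreceptors of mature B cells, differed by 2.49 (SE 0.90) and 3.03 (SE 1.03) but overlapped. Without the tumour labelled LAP B-ALL 4, 12 members were higher and 1 was lower, beside 756 (4.42%) and 701 (4.10%) of all genes. Without LAP preB-ALL 2, 8 were higher, beside 897 (5.25%) of all genes.

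Genes of MHC class II presentation were 8 higher and none lower of 13 measured, and all 13 differences were above 0 (list median 2.39). H2-Aa, a class II alpha chain, was at 3.29, 3.10 and 4.09 in LAP B-ALL 1, 2 and 3 and at 3.85 and 3.04 in LAP preB-ALL 2 and 4, against -0.10, -0.80 and 0.10. Ciita, the activator of class II genes, was between 1.96 and 3.82 against -0.30 to 0.01. Cd74, the invariant chain, was between 2.34 and 3.13, and the tumour labelled LAP B-ALL 4 at 1.30 lay between these and LAP preB-ALL 1 and 3. H2-DMa and H2-DMb1, which load peptides, differed by 2.39 (SE 0.46) and 2.15 (SE 0.36). The probe sets of H2-Aa and H2-Ab1 are of a kind that can pick up related transcripts. Class II genes are also made by macrophages and dendritic cells. Among markers of monocytes and macrophages 6 of 16 were higher, with list medians of 0.23 to 1.62 against -0.54 to 0.12. Without LAP preB-ALL 2, 10 of the 16 were higher, beside 897 (5.25%) of all genes. Of 9 dendritic cell markers 1, Batf3, was higher. In bulk tumours, fewer cells of a type and less RNA per cell cannot be told apart, and the part of such cells in the class II values was not tested.

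Germinal centre and memory B-cell genes were 9 higher and none lower of 17, with all 17 differences above 0 (list median 1.66). Rgs13, a regulator of G protein signalling in germinal centre B cells, was at 5.27, 4.69 and 0.27 in LAP B-ALL 1, 2 and 3 and at 8.83 and 0.49 in LAP preB-ALL 2 and 4. The Vpreb1-high class lay between -0.16 and 0.06. Rgs13 thus ranged from near the Vpreb1-high values to the highest value of any tumour within the Vpreb1-low class. Gcsam, a germinal centre signalling protein, was at 6.04 in LAP preB-ALL 2 and between 0.12 and 0.67 in the other 4 tumours of its class. Nt5e, which encodes the memory B-cell marker CD73, was at 5.49 in LAP preB-ALL 2 and at 0.63 to 3.17 elsewhere in the class. Of the 17 genes, 9 were at least 2 above the rest of the class in LAP preB-ALL 2, beside 134 of all 17097 genes.

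Some genes of this list had the opposite order. Zbtb32, a repressor found in memory B cells, was between 2.71 and 4.15 in 4 Vpreb1-low tumours and at 1.29 in LAP preB-ALL 2. Cd5, a marker of B-1 cells and of T cells, was at 0.77 in LAP preB-ALL 2 and between 2.26 and 3.44 in the others, against -0.15 to 0.50. Pdcd1lg2, a ligand of PD-1 found on B-1 and memory B cells, was at 0.55 in LAP preB-ALL 2 and between 1.45 and 2.40 in the others. Lmo2, counted both in this list and among the transcription factors, was at 0.41 in LAP preB-ALL 2 and between 2.03 and 2.17 in the others. The erythroid gene Klf1, given below, had the same order. Bcl6, the main germinal centre repressor, and S1pr2, a receptor that holds cells in the follicle, were not apart, but LAP preB-ALL 2 reached 4.24 and 4.03, with the rest of its class between -0.91 and 0.38 and between -0.03 and 0.34. Without LAP preB-ALL 2 the list still had 8 higher members, beside 897 (5.25%) of all genes, and its median was 1.34. None of 9 plasma-cell genes was apart, and Jchain, which joins secreted antibodies, was at 6.08 in LAP preB-ALL 2 and between -1.56 and 0.18 in the rest of the class.

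Of 15 NF-kB factors and targets 8 were higher and none was lower (list median 1.16). Bcl2a1a, a survival gene of the Bcl2 family, was between 2.17 and 3.23 against -1.10 to 0.25, on a probe set that may not separate it from its copies. Ccl3 and Ccl4, chemokines of activated B cells and macrophages, differed by 3.17 (SE 0.71) and 1.81 (SE 0.31). Egr2, a factor induced by antigen receptors, was between 2.88 and 3.81 against -0.20 to 0.16, a difference of 3.55 (SE 0.23). Jun went the other way, with values between -1.59 and 1.30 against 1.56 to 2.52, and 3 of 18 immediate early genes were apart in all. Without the tumour labelled LAP B-ALL 4, 12 NF-kB genes were higher, while the share of all genes that were higher went from 2.84% to 4.42%.

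Socs2, a feedback inhibitor that STAT5 induces, was at -3.90, -3.64 and -3.64 in LAP B-ALL 1, 2 and 3 and at -1.81 and -2.48 in LAP preB-ALL 2 and 4, against 1.97, 1.16 and -0.34. It was the largest of 2 lower genes and 1 higher among 17 of the IL-7 and STAT5 response (list median -0.19). Cish and Socs3, further targets of STAT5, each differed by -0.95 and were not apart. Mcl1, a survival gene, differed by 1.43 (SE 0.23) and Bmf, which promotes cell death, by -2.01 (SE 0.77). In Bmf the tumour labelled LAP B-ALL 4 stood at 2.99 and the other Vpreb1-high tumours at -0.02 and 0.05. Of 13 genes of the Bcl2 family 2 were lower and 2 were higher.

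Cdkn2a, which encodes the tumour suppressors p16 and p19ARF, was at 3.61 in the tumour labelled LAP B-ALL 4 and at 3.64 and 3.51 in LAP preB-ALL 1 and 3. In the Vpreb1-low class it was at -2.47, -2.36 and -1.21 in LAP B-ALL 1, 2 and 3 and at 0.26 and -1.84 in LAP preB-ALL 2 and 4. The 8 tumours without Blnk lay between -1.70 and 1.59. The Vpreb1-high class was therefore above every other tumour for Cdkn2a, whereas for Vpreb1 it lay among the tumours without Blnk. Lhx2, a LIM homeobox factor that was chosen after its values were seen, showed 3.07 to 4.40 in the Vpreb1-high class against -0.41 to 0.02, though tumours without Blnk reached 3.84. Cdkn2a was the only 1 of 35 cell cycle genes that was apart (list median -0.03). None of 15 genes of the p53 response was apart, with a list median of 0.39. Of 21 genes of Myc and ribosome biogenesis none was apart, although 20 of 21 differences were below 0 (list median -0.50). Without the tumour labelled LAP B-ALL 4, 5 of these 21 were lower, 3 of the p53 response were higher, and 3 cell cycle genes were lower and 1 was higher, beside 4.10% lower and 4.42% higher of all genes. Myc reached 1.29 in LAP preB-ALL 1 and 1.21 in LAP preB-ALL 3, and Mycn 3.88 in the tumour labelled LAP B-ALL 4, against -0.34 to 0.03 for Mycn in the Vpreb1-low class.

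**Figure D3:**
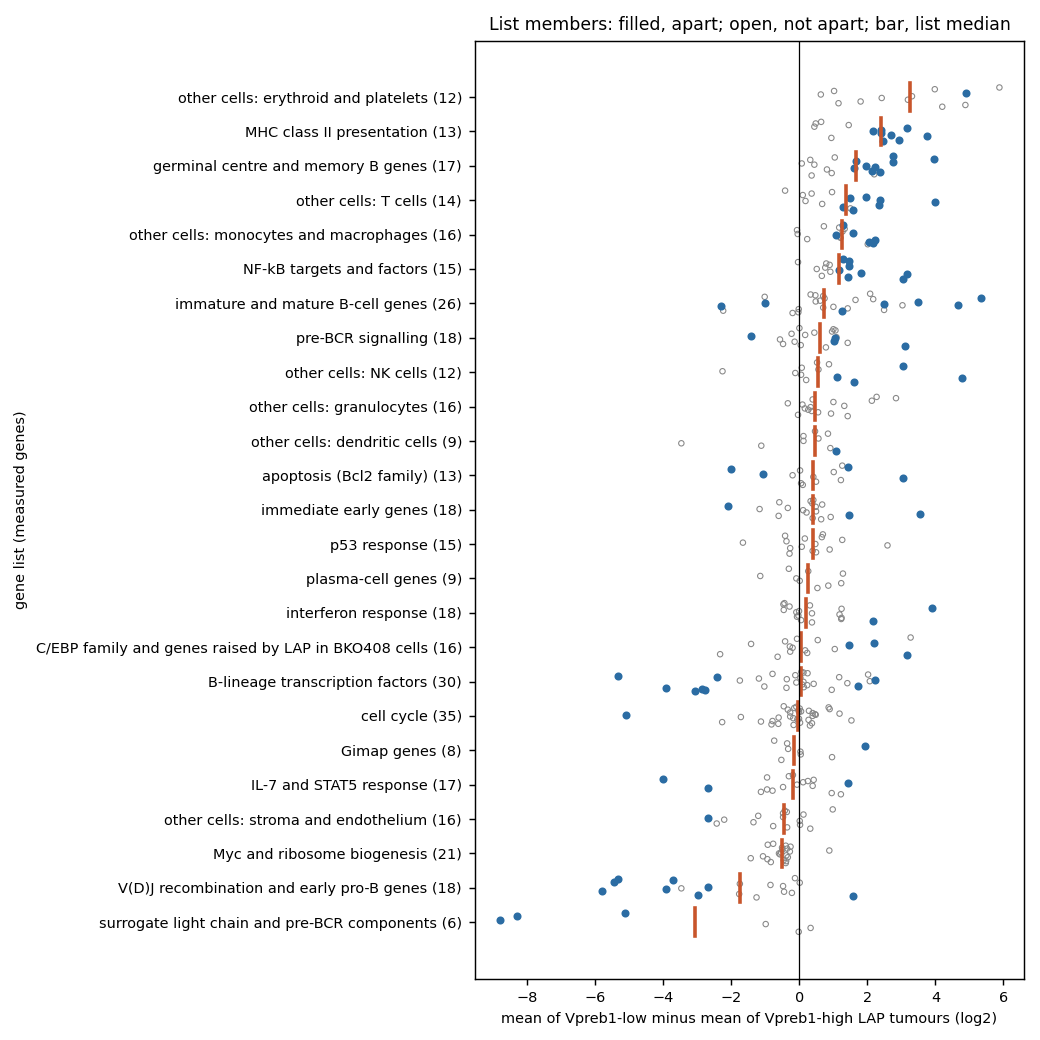
Difference of the class means, Vpreb1-low minus Vpreb1-high (x axis, log2), for every measured member of 25 gene lists (rows, with the number of genes), ordered by list median (bar). Filled points are genes apart, and medians run from -3.06 for the pre-BCR components to 3.25 for the erythroid list, where 1 of 12 points is filled.

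The largest lower genes outside the lists were Car3, a carbonic anhydrase (-5.02 to -4.13 against 1.02 to 2.09), Tmem255a, a membrane protein (-5.41 to -4.77 against 0.24 to 0.45), and Bfsp2, a filament protein known from the lens (-4.18 to -2.79 against 1.22 to 1.64). Car3 depended on the probe set, since its difference was -6.23 on the 1 chosen and -2.44 on the mean of its 4. The largest higher genes outside the lists included Cxcl9, a chemokine induced by interferon gamma (2.04 to 4.14 against -2.15 to -1.86), and Coch, a secreted protein (4.01 to 6.14 against -0.29 to 0.00). Nxpe2 was between 2.65 and 5.71 against -0.12 to 0.05, a difference of 4.64, or of 2.97 on the mean of its probe sets. For Cxcl9 every Vpreb1-low tumour was also above all 8 tumours without Blnk, whose highest value was 0.33. Of 18 interferon response genes 2 were higher, Rsad2 and Gbp2, and LAP preB-ALL 2 was at 0.01 for Rsad2 with the other Vpreb1-low tumours at 3.42 to 4.55.

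Erythroid genes set LAP preB-ALL 2 apart from the other Vpreb1-low tumours. Klf1, a master factor of red cells, was at 5.32, 5.45 and 6.54 in LAP B-ALL 1, 2 and 3 and at 5.83 in LAP preB-ALL 4, but at 0.11 in LAP preB-ALL 2. The Vpreb1-high class was between -0.44 and 0.01. Slc4a1, the anion exchanger of red cells, was between 7.23 and 7.99 in the first 4 and at -0.55 in LAP preB-ALL 2. Of 12 erythroid and platelet genes, 1 was higher in the Vpreb1-low class by the strict measure. Without LAP preB-ALL 2, 11 were, beside 897 (5.25%) of all genes. List medians were 4.04, 4.03 and 4.89 in LAP B-ALL 1, 2 and 3, 4.53 in LAP preB-ALL 4 and -0.38 in LAP preB-ALL 2, against -0.40 to 0.41. Tspan33, Ctse and Ermap, which are among the largest higher genes and are all made in red cell precursors, had the same order, with LAP preB-ALL 2 at 2.06, 1.51 and 0.47 and the other 4 tumours at 5.04 or more.

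Markers of further cell types also differed between the classes. Of 14 T-cell genes 7 were higher, Cd3g between 2.59 and 4.25 against -1.03 to 0.18, with list medians of 0.60 to 1.80 against -0.43 to -0.04. Of 12 NK-cell genes 4 were higher, among them Gzmb, a cytotoxic protease, at 2.94 to 5.18 against -0.80 to -0.31. Others of this list were not apart. Ncr1, Klra1 and Gzma differed by 0.07, 0.05 and 0.20, and Klrb1c and Klrd1 by -0.12 and -2.26. The complement genes C1qa, C1qb and C1qc of macrophages differed by 2.17, 2.04 and 2.23. None of 16 granulocyte genes was apart. Without both LAP preB-ALL 2 and the tumour labelled LAP B-ALL 4, 9 were higher, beside 1141 of all 17097 genes. Granulocyte list medians were 1.10 to 2.04 in 4 Vpreb1-low tumours and 2.08 in the tumour labelled LAP B-ALL 4, and between -0.43 and -0.37 in LAP preB-ALL 1, 2 and 3. S100a8, abundant in neutrophils, ran from -4.51 in LAP preB-ALL 2 to 3.85 in the tumour labelled LAP B-ALL 4. Of 16 stromal and endothelial genes 1 was lower, Emcn, a sialomucin of venous endothelium and blood stem cells (-2.43 to -2.15 against -0.02 to 0.79). Without LAP preB-ALL 2, 3 were lower, beside 597 (3.49%) of all genes. The higher erythroid, T-cell and macrophage values, and those of the 4 higher NK-cell genes, go with higher NF-kB, chemokine and class II values in the same tumours. Their part in those was not tested. Beside its class II median of 2.65, LAP preB-ALL 2 had list medians of -0.38 for erythroid, 0.23 for macrophage, 0.94 for T-cell, 0.43 for NK-cell and 0.55 for dendritic cell genes, the last being the highest of its class. Of its 16 macrophage genes, 4 were at least 2 below the rest of the class, among them Adgre1 (-3.02) and Mrc1 (-4.20), and none was so far above. Of all 17097 genes, 249 were so far below and 134 above. Other macrophage genes were not low in it. C1qa, C1qb, C1qc, Csf1r and Cd68, at 0.95, 0.80, 0.91, 1.14 and 0.71, lay within the range of the rest of the class. Lyz2 (1.22) and Timd4 (2.94) were the highest of the class. The dendritic cell list includes Flt3 (2.18) and Irf8 (1.82), which are also on the B-cell lists.

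**Figure D4:**
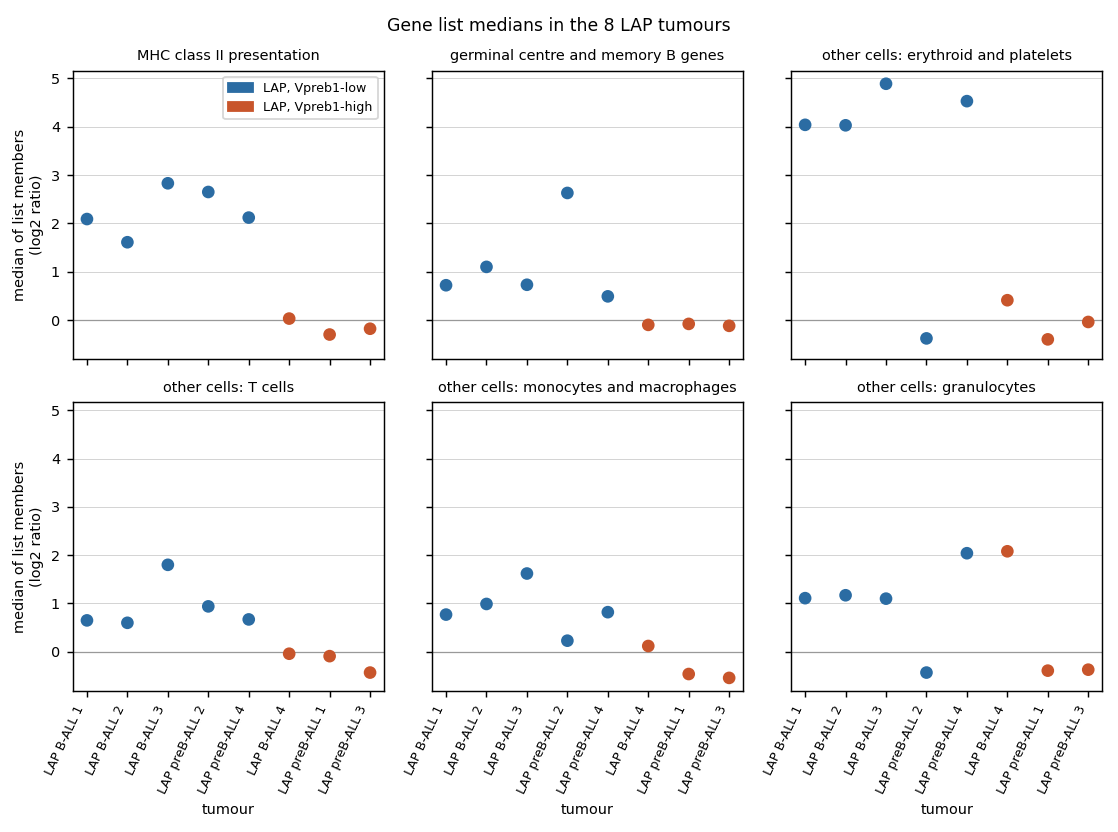
Median log2 ratio of list members (y axis) in each of the 8 LAP tumours (x axis) for 6 gene lists. The class II medians are 1.61 to 2.83 in the Vpreb1-low class, whereas the erythroid median is -0.38 in LAP preB-ALL 2 and 4.03 to 4.89 in the other 4, and the granulocyte median of the tumour labelled LAP B-ALL 4 is 2.08.

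Genes of the C/EBP family and genes that LAP raised in BKO408 cells, a preB-ALL cell line of the same series from which this list was partly chosen, were 3 higher and none lower of 16 (list median 0.05). Cybb, a subunit of the phagocyte oxidase, was between 1.58 and 2.34 against -0.59 to 0.26. Cebpb itself differed by 1.04 (SE 0.92) and overlapped on its probe set with the largest spread. On another probe set Cebpb was at 0.11 to 1.77 against -0.43 to 0.09, without overlap but by a narrow margin. On the remaining probe set the classes overlapped. Slpi, a protease inhibitor, was at 0.21 to 4.92 against -1.60 to 0.59. Of 8 Gimap genes, GTPases of lymphocytes, 1 was higher, Gimap7 at 1.05 to 3.22 against -0.21 to 0.00. Of 4 sex-linked genes none was apart, but they divided each class. Xist, which is made from the inactive X chromosome of females, was at -6.75 in LAP preB-ALL 2 and -6.67 in LAP preB-ALL 3 and between 0.05 and 0.56 in the other 6 LAP tumours. Eif2s3y, on the Y chromosome, was at 5.89 and 2.62 in the same tumours and between -0.28 and -0.11 in the others. LAP preB-ALL 2 was thus the only Vpreb1-low tumour with this pattern, so its sex cannot be told apart from its other differences from the class.

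The tumours without Blnk, which the rule did not split, lay mostly with the Vpreb1-high class. For each gene apart, a tumour was placed on the side of the class whose mean was nearer. All 8 were on the Vpreb1-high side for 194 of the 480 lower genes (40.4%) and for 250 of the 486 higher genes (51.4%). All 8 were on the Vpreb1-low side for 7 of 966. Among the genes for which all 8 were beside the Vpreb1-high class were Vpreb1, Vpreb3, Rag1, Rag2, Sox4, Erg, Ebf1, Cd83, Ciita and Klf1. Only 1 of the 8 lay on that side for Cdkn2a, Cd69 and Jun. The tumours have their values relative to the same median, to which the Vpreb1-high class contributes 3 and the tumours without Blnk 8 of 16 arrays, so values near 0 in these tumours are partly set by the centring.

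Single tumours differed in this respect. For genes higher in the Vpreb1-low class, Blnk preB-ALL 5 was on the Vpreb1-high side in 64.2% and Blnk preB-ALL 2 in 82.3%, and the other 6 tumours without Blnk in 91.2% to 96.1%. For genes lower in the class, the 8 tumours ranged from 67.7% to 84.0%. Blnk preB-ALL 5 was the tumour with Cxcr5 at 3.24, Cd83 at 1.95 and H2-Aa at 2.02. The 3 LAP/Blnk preB-ALL tumours, which carry the transgene, were at 74.0% to 79.8% for the lower and 92.2% to 94.4% for the higher genes, within the range of the Blnk preB-ALL tumours. Within the Vpreb1-low class, LAP preB-ALL 2 was on the other side for 23.5% of the higher genes and its 4 fellow members for at most 5.76%.

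**Figure D5:**
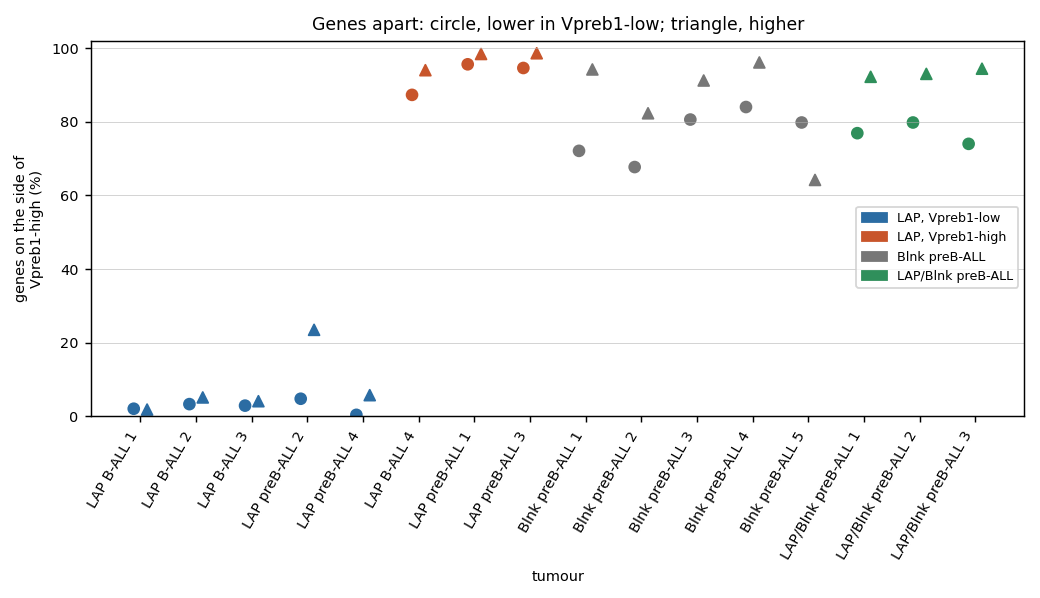
Percentage of the genes apart (y axis) for which each tumour (x axis) lay nearer to the Vpreb1-high mean, for the 480 lower (circles) and 486 higher genes (triangles). The 8 LAP tumours are where the rule put them. Tumours without Blnk lie between 64.2% and 96.1%.

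Within the classes, the members were not alike to the same degree. LAP preB-ALL 2 lay at least 2 above the rest of the Vpreb1-low class in 134 genes and at least 2 below in 249. The other 4 members did so in 1 to 10 genes each. In the Vpreb1-high class, where each tumour is set against only 2 others, the tumour labelled LAP B-ALL 4 stood apart in 203 genes, LAP preB-ALL 3 in 147 and LAP preB-ALL 1 in 58. In the tumour labelled LAP B-ALL 4 these included 9 of 16 granulocyte genes and 6 of 30 transcription factors, all above the other members. Of all 17097 genes, 153 were that far above them in this tumour. These counts are of unequal comparisons, 1 against 4 and 1 against 2, and cannot be set against each other across the classes.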

How the data were processed

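Total RNA of mouse tumours was made into biotin-labelled cRNA for Affymetrix arrays, per the labels' protocols. The submitters' processing notes name MAS5 alone; the sources used here give neither its version nor the scaling. The authors deposited 1 table of log ratios, taken here as log2 values, in which the median of each of 45141 probe sets over the 16 tumours is 0. Of the probe sets, 28898 had a single gene symbol in an annotation of 2016, 551 had several and 15692 had none. Each of 17097 genes was represented by its probe set with the largest SD over the 16 tumours. The 8 LAP tumours were split at a Vpreb1 log2 ratio of -4.0, and a gene was called apart when the classes did not overlap and their means differed by at least 1.0. SE of differences between the classes are from the pooled SD of the classes. SE of differences between the labelled groups are those of limma. This split was not tested. For the labelled groups, limma (3.58.1, R 4.3.3) was fitted over all 16 tumours, two-sided, with Benjamini-Hochberg adjustment and a threshold of 0.05. The 3 markers were also compared with exact permutation tests. The scripts were tested on simulated data. The members and the 26 gene lists (432 genes, 386 measured) were chosen with earlier results of these data known. Genes named are the markers, every B-cell list member that was apart, the 3 largest of every other list, and the 10 largest in each direction. Other named genes were chosen after their values were seen.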

Additional observations from a re-analysis of the deposited data

Results flagged for a closer look

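Among 79 named genes, 9 had a tumour of the Vpreb1-low class whose gap to the nearest other member was large against the range of the 5 tumours, by Dixon's 95% limit. Chance alone gives such a gap in about 1 of 20 groups that were not chosen by their values. These genes were mostly picked on the values of these same tumours and are not independent. That rate therefore does not apply to them, and the count carries no test. In all 9 the tumour was LAP preB-ALL 2. It was lowest for Klf1 (0.11, gap of 0.811 of the range), Ermap (0.47, 0.814), Ctse (1.51, 0.856), Tspan33 (2.06, 0.71), Rsad2 (0.01, 0.751), Lmo2 (0.41, 0.921) and Igfbp4 (-2.91, 0.745). It was highest for Gcsam (6.04, 0.908) and Bmf (-0.26, 0.84).

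Of 7 looks at the markers in labelled groups, which left out Vpreb1 in LAP tumours because it split them, 2 gave such a gap. In LAP B-ALL the tumour labelled LAP B-ALL 4 was highest for Rag1 (2.00, nearest -6.11, gap of 0.941 of the range). In Blnk preB-ALL, tumour 2 was lowest for Vpreb1 (-0.45, nearest -0.01, 0.726).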

How the results depend on the processing

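The number of genes apart was 966. Asking for a difference of 2 gave 307 (140 lower and 167 higher), and no minimum gave 2826 (1453 and 1373). Classes cut at the largest gap of Rag1 gave 397 (229 and 168), of which 231 were among the 966, and at that of Ms4a1 gave 968, of which 436 were. Leaving out 1 tumour gave 984 to 1494 genes, with 485 to 897 higher and 496 to 701 lower. Leaving out both the tumour labelled LAP B-ALL 4 and LAP preB-ALL 2, a choice made after seeing the data, gave 1948 (807 and 1141). Of the list members, 84 of 386 were apart, 53 with a difference of 2, 43 with the classes of Rag1, 84 to 133 without 1 tumour and 160 without both. The share of genes apart with all 8 tumours without Blnk on the Vpreb1-high side was 46.0%, 29.3% with no minimum and 17.3% with the classes of Ms4a1. Under quantile normalisation it was 32.7% and 780 genes were apart. No named gene changed direction in any of these settings. With the mean of all probe sets of a gene 786 genes were apart (361 and 425), and 10 of 79 named genes moved by over 1.5 times: Car3 from -6.23 to -2.44, Socs2 from -4.02 to -2.11, Bach2 from -3.07 to -2.04, Cd93 from -2.99 to -1.73, Runx1 from -2.42 to -1.53, Bmf from -2.01 to -0.94 (no longer apart), Nxpe2 from 4.64 to 2.97, Ciita from 2.93 to 1.85, Nt5e from 2.74 to 1.32 and Cd80 from 2.13 to 1.34. Quantile normalisation moved H2-DMb1 from 2.15 to 1.34. Of the 79 named genes, 70 stayed apart under quantile normalisation and 75 with the mean of probe sets. Classes cut at the largest gap of Rag1 left 27 of the 79 apart, and those of Ms4a1 left 28. Vpreb1 has 1 probe set, so classes from a mean of probe sets could not be made. The labels called 0 genes, 4 with array weights and 0 to 291 without 1 tumour. Rag1 by label, at -0.21, turned to 0.41 with quantile normalisation, 1.23 with the Vpreb1 class as a term, and lay between -2.28 and 0.99 without 1 tumour. The cause was not tested. With the replicate number as a block, 0 genes were called by limma, and 991 had an unadjusted p under 0.05. Tumours of the same number correlated at -0.64 to 0.04, which shows no pairing by number. It cannot exclude one, since the tumours numbered 1, 3 and 4 lay in different Vpreb1 classes under the 2 labels. The deposited ratios hold no signal over background, so how far low signals limit a value is unknown.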
